A study of Mus musculus with 8 samples.

Results

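The Sly, Slx and Xlr superfamily of the mouse comprised 10 named genes in this study: the Y-linked Sly and the X-linked Slx, Slxl1, Xlr, Xlr3a, Xlr3b, Xlr3c, Xlr4a, Xlr4b and Xlr4c. They were picked by gene symbol, and 10 of 10 were found among the 56748 genes of the deposited count table. RNA sequencing was done on adult testis of 4 libraries labelled Ssty2 knockout (genotype given as Ssty2-/-) and 4 libraries labelled wild type (WT). The submitters' title describes the knockout as a deletion of Ssty2 repeats of the Y chromosome and links it to the sex ratio of the mice. The sources used here do not give the extent of the deletion, the strain or the exact age. The labels do not say that replicates are separate animals, so p-values reflect variation among these 8 libraries alone, and that variation may be technical.

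The family is related to Sycp3, which encodes a protein of the synaptonemal complex, the scaffold that joins homologous chromosomes in meiosis. Slx (Sycp3-like X-linked), Slxl1 (Slx-like 1) and Sly (Sycp3-like Y-linked) are present in many copies on the sex chromosomes and are transcribed in spermatids, which are haploid and develop into sperm. In mouse, SLY represses sex-linked genes in spermatids, SLX and SLXL1 act against it, and a shift in the balance between them skews the sex ratio of the offspring; these proteins bind the SSTY proteins and the related chromatin reader SPIN1. Xlr (X-linked lymphocyte-regulated) was first described in lymphocytes. Xlr3 protein lies on the silenced X and Y chromatin of spermatocytes, and Xlr3b is imprinted in mouse brain.

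Promoter windows of RefSeq, on build GRCm38.p6, were found for 9 of the 10 members, all but Sly, and spanned 250 bases before to 50 bases after the start of the gene. The 250 bases before the start are printed for 5 members, 5′ to 3′ on the strand of the gene, because Slx and Slxl1 resembled each other closely and were both higher in counts in the knockout, while Xlr, Xlr3b and Xlr4b were lower. Capitals mark the letters CCAATCAG, an extended CCAAT box. The windows are Slx on the minus strand (chrX:26545566-26545815), Slxl1 on the plus strand (chrX:55226626-55226875), Xlr on the minus strand (chrX:53797707-53797956), Xlr3b on the plus strand (chrX:73191929-73192178) and Xlr4b on the plus strand (chrX:73214083-73214332).
Slx: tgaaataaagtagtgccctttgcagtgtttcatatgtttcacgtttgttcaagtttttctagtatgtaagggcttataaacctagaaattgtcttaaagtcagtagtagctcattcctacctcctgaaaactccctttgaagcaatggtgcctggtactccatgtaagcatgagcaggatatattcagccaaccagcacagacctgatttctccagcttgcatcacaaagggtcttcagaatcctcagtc
Slxl1: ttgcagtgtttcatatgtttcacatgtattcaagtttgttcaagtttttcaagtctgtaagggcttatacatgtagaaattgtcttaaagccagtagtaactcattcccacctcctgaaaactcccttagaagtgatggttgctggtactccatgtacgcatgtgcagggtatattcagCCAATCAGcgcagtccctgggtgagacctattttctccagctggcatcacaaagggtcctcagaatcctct
Xlr: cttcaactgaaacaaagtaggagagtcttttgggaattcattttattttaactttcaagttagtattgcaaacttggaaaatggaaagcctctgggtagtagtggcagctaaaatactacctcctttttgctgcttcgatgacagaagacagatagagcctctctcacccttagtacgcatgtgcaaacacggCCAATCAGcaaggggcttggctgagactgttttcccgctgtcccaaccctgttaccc
Xlr3b: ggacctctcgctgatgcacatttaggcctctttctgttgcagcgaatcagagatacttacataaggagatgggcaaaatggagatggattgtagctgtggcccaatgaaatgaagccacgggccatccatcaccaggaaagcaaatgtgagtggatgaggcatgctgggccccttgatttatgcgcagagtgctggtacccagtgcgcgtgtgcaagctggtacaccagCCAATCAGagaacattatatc
Xlr4b: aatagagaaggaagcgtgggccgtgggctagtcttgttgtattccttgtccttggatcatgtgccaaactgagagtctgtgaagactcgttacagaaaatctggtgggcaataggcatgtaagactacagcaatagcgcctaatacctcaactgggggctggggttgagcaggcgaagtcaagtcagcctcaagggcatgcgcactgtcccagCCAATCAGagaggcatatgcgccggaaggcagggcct

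Over their whole windows, Slx and Slxl1 were 90.3% identical across 277 aligned bases. Slx and Xlr were 69.4% identical across 255 bases, and Slxl1 and Xlr 68.8% across 253 bases. Within the Xlr3 and Xlr4 groups the windows were nearly the same, with 98.1% between Xlr3b and Xlr3c and 98.6% between Xlr4a and Xlr4b. CCAATCAG, searched on both strands, lay in 8 of the 9 member windows, all but that of Slx, and in 4.10% of all 32851 windows of the same length. The near-identical windows are not independent of each other. The shorter letters CCAAT, which CCAATCAG contains, lay in the same 8 members and in 37.4% of all windows. TATAAA lay in the Slx window alone of the 9 (13.6% of all windows), and TGACGTCA, the cAMP response element, in none of them (1.79% of all windows). The motifs were chosen after the members' values had been seen, and a match is a description, not a site.

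Libraries held between 18036708 and 24415587 counts. Ssty2 itself had no count in any knockout library. This allows a level of up to 0.0364 CPM (counts scaled to library size) over the group, in counted reads only. In WT, Ssty2 was at 2.92 ± 0.552 CPM (SD, n = 4). Levels below are CPM after TMM scaling (trimmed mean of M-values), fold changes are knockout over WT, and adjusted p-values are those of edgeR's quasi-likelihood test over 21952 tested genes, called under 0.05. Cell type markers also differed between the groups. All 23 tested round spermatid markers rose in the knockout, with summed levels of 8549 to 8798 CPM in knockout and 5889 to 6501 CPM in WT libraries. Of 16 tested elongating spermatid markers 15 rose (26323 to 29542 CPM in knockout, 17216 to 21032 CPM in WT). Of 16 tested spermatocyte markers 4 rose and 5 fell (8298 to 8794 CPM in knockout, 7637 to 7983 CPM in WT), and of 14 spermatogonial markers 1 rose and 10 fell (749 to 796 CPM in knockout, 794 to 909 CPM in WT). Of 14 Sertoli cell markers 13 fell (1314 to 1486 CPM in knockout, 1973 to 2221 CPM in WT), as did 10 of 10 Leydig cell markers (1125 to 1225 CPM in knockout, 2155 to 2415 CPM in WT). No marker of these 6 lists was at 0. In whole testis, fewer cells of a type and less RNA per cell cannot be told apart.

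Of the 10 members, 9 had enough counts to be tested, 7 fell in the knockout, Slxl1 alone rose, and Xlr3a did not pass. Of all tested genes 53.5% were called, 26.2% higher and 27.4% lower. Of the 836 tested X-linked genes 77.5% were called, 36.4% higher and 41.1% lower, against 7 of the 8 tested X-linked members, 1 higher and 6 lower. The number of X-linked members called was thus near the share of X-linked genes called. Among 3595 genes within the range of mean log2 CPM of these 8 members, 37.8% were called, 19.9% higher and 18% lower. The median log2 fold change was -0.80 over the 9 tested members, -0.24 over the tested X-linked genes and -0.01 over all tested genes. The knockout and WT libraries did not overlap for 7 of the 9 tested members, against 46.7% of all tested genes. The plot of the members by library shows the 3 patterns: Sly near 0 in the knockout, Slx and Slxl1 higher on average, and the Xlr genes lower on average. With library totals in place of TMM, 31.8% of the called genes were higher, against 48.9% with TMM, and the median log2 fold change of all genes was -0.15. No tested member changed direction under that scaling, and 1 was called higher and 8 lower.

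**Figure D1:**
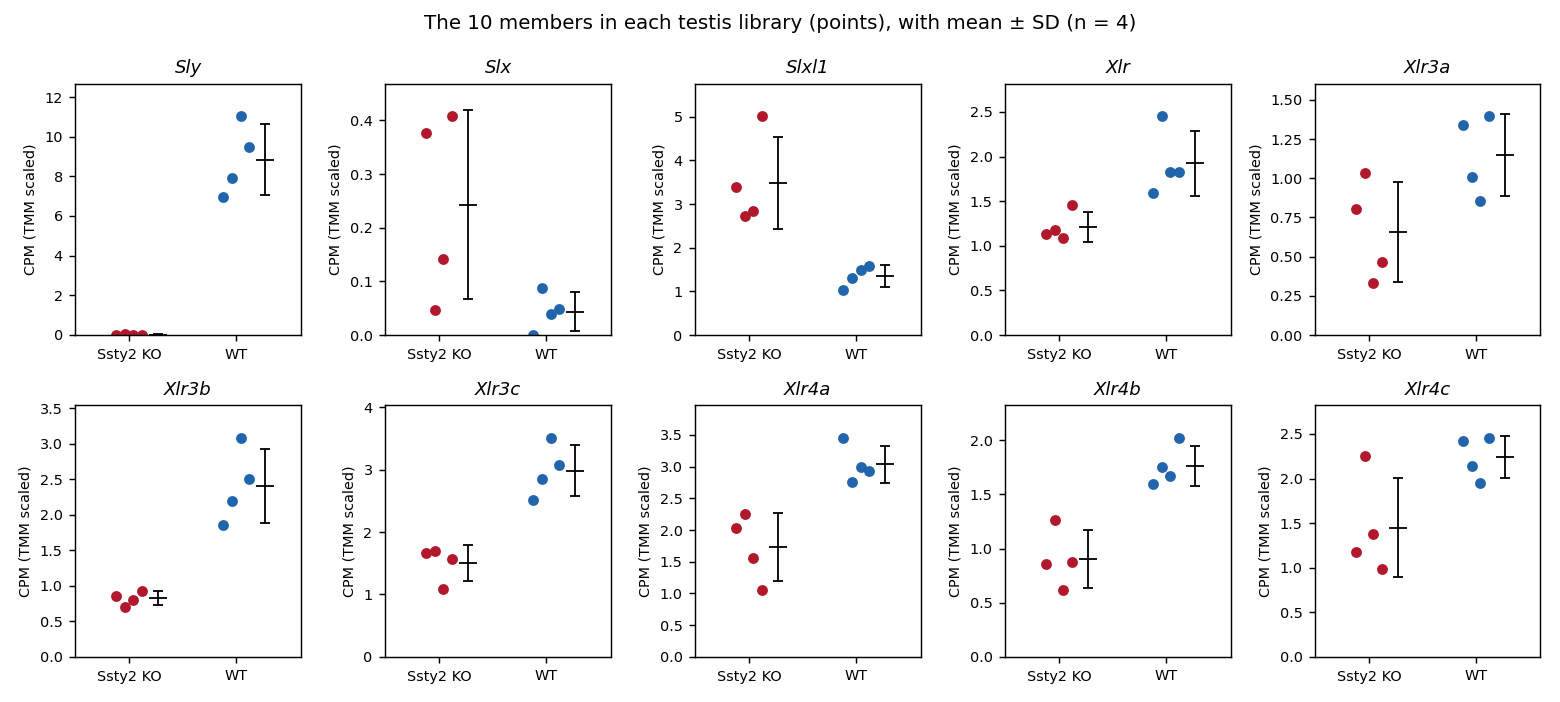
CPM (TMM scaled, y axis, scaled to each gene) of the 10 members in 4 Ssty2 knockout (red, left) and 4 WT libraries (blue, right), with bars for mean ± SD. Sly is at or near 0 in every knockout library, Slxl1 lies higher in every knockout than in every WT library, and Xlr3b, Xlr3c, Xlr4a, Xlr4b and Xlr lie lower without overlap.

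Sly (ENSMUSG00000101155, chromosome Y), the Y-linked repressor, had 0, 1, 0 and 0 counts in knockout libraries 1 to 4, and 135, 181, 283 and 197 counts in WT libraries 1 to 4. Every WT library lay far above every knockout library. The knockout held 0.143% of the WT level, with a 95% counting interval of 0.0036% to 0.796%, and WT averaged 8.84 ± 1.79 CPM (n = 4). The fall passed the test at an edgeR adjusted p of 9.96e-11. Intervals of this kind cover counting error only. Of the words of 31 bases in Sly transcripts, 72.8% also occurred in other genes, so that its reads and those of its copies cannot be kept fully apart, and the sources used here do not say how reads with several matches were counted.

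Slx and Slxl1, the X-linked counterparts of Sly, had more counts in the knockout. Slx (ENSMUSG00000095063) had 7, 1, 3 and 7 counts in knockout libraries 1 to 4, against 0, 2, 1 and 1 in WT libraries 1 to 4. The groups overlapped, since knockout library 2 lay below WT library 2, and the gene was too low for the test. Over the groups, 18 counts in the knockout against 4 in WT gave a ratio of 5.11 with a counting interval of 1.68 to 20.7. When low genes were kept, in a fit over 41909 genes, its log2 fold change was 2.24 (edgeR adjusted p = 0.0323).

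Slxl1 (ENSMUSG00000067909) had 63, 58, 60 and 86 counts in knockout libraries 1 to 4, against 20, 30, 38 and 33 in WT libraries 1 to 4. In CPM these were 3.38, 2.72, 2.84 and 5.01 in the knockout, and 1.03, 1.31, 1.48 and 1.59 in WT. The groups did not overlap, and knockout library 4 was the highest. Slxl1 averaged 3.49 ± 1.05 CPM in the knockout and 1.35 ± 0.243 CPM in WT, and rose by 1.35 on the log2 scale (SE 0.23, 95% interval 0.87 to 1.82, edgeR adjusted p = 0.000114). Slxl1 was the member with the highest share of words, 84.9%, found in other genes.

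Xlr (ENSMUSG00000054626), the founding gene of the X-linked family, had 21, 25, 23 and 25 counts in the knockout libraries and 31, 56, 47 and 38 in the WT libraries. All knockout libraries lay below all WT libraries, and WT library 2 was the highest. Xlr averaged 1.21 ± 0.166 CPM in the knockout and 1.93 ± 0.366 CPM in WT, and fell by 0.68 on the log2 scale (SE 0.22, edgeR adjusted p = 0.0144). Without WT library 2 the call was lost (log2 fold change -0.55, adjusted p = 0.0571). With 24.1% of its words in other genes, Xlr is the member whose counts are the least shared.

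The Xlr3 genes include the members with the steepest falls on the X. Xlr3b (ENSMUSG00000073125), imprinted in mouse brain, had 16, 15, 17 and 16 counts in the knockout libraries and 36, 50, 79 and 52 in the WT libraries. The highest knockout library lay well below the lowest WT library. It averaged 0.825 ± 0.0957 CPM in the knockout and 2.40 ± 0.520 CPM in WT, and fell by 1.55 on the log2 scale (SE 0.23, 95% interval -2.04 to -1.07, edgeR adjusted p = 3.39e-05).

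Xlr3c (ENSMUSG00000058147) had 31, 36, 23 and 27 counts in the knockout libraries and 49, 65, 90 and 64 in the WT libraries, again without overlap. Its level ran from 1.09 to 1.69 CPM in the knockout and from 2.52 to 3.51 CPM in WT. The knockout held 0.501 of the WT level in the fit (95% interval of the log2 fold change -1.41 to -0.58, edgeR adjusted p = 0.000465). Xlr3a (ENSMUSG00000057836) had 15, 22, 7 and 8 counts in the knockout libraries and 26, 23, 22 and 29 in the WT libraries. Knockout library 2 overlapped the WT range, while libraries 3 and 4 were the lowest. Xlr3a did not pass the test (log2 fold change -0.77, 95% interval -1.48 to -0.07, edgeR adjusted p = 0.0589). It passed without knockout library 2 or without WT library 3, with library totals as the scaling, with no filter and with limma-voom, and its log2 fold change ran from -1.09 to -0.54 over 14 alternatives.

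The Xlr4 genes lie among the Xlr3 and Xlr5 genes on the X and were lower in the knockout as well. Xlr4a (ENSMUSG00000079845) had 38, 48, 33 and 18 counts in the knockout libraries and 67, 63, 77 and 61 in the WT libraries. The groups did not overlap, and knockout library 4 was the lowest. Its level was 1.73 ± 0.537 CPM in the knockout and 3.03 ± 0.295 CPM in WT, a log2 fold change of -0.80 (SE 0.21, edgeR adjusted p = 0.00447).

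Xlr4b (ENSMUSG00000067768) had 16, 27, 13 and 15 counts in the knockout libraries and 31, 40, 43 and 42 in the WT libraries. It too was lower in every knockout than in every WT library, at 0.904 ± 0.270 CPM in the knockout and 1.76 ± 0.184 CPM in WT (log2 fold change -0.95, SE 0.24, edgeR adjusted p = 0.00358). Xlr4c (ENSMUSG00000031362) had 22, 48, 29 and 17 counts in the knockout libraries and 47, 49, 50 and 51 in the WT libraries. In CPM, knockout library 2 reached the WT range (2.25 against 1.95 to 2.45), and the groups overlapped. Xlr4c fell by 0.60 on the log2 scale (SE 0.24, edgeR adjusted p = 0.0415). This call was lost with DESeq2 (adjusted p = 0.0619) and without knockout library 1, 3 or 4 or WT library 1, 2 or 4 (adjusted p between 0.0638 and 0.119).

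The relatives named outside the 10 members were Xlr5a, Xlr5b, Xlr5c and Sycp3, and 2 of these 4 fell. Xlr5c, in the same cluster of the X, fell by 0.66 on the log2 scale, at 1.14 ± 0.212 CPM in the knockout and 1.82 ± 0.167 CPM in WT (edgeR adjusted p = 0.0153). Xlr5a had a log2 fold change of -0.21 (95% interval -0.69 to 0.28, edgeR adjusted p = 0.474) and Xlr5b one of -0.45 (95% interval -0.95 to 0.06, edgeR adjusted p = 0.125), and neither passed. Xlr5b passed with library totals as the scaling (-0.59, edgeR adjusted p = 0.0455) and without knockout library 1 (-0.67, edgeR adjusted p = 0.0277). Xlr5a was at -0.06 without knockout library 3 and at -0.36 without WT library 4, and passed in none of its 15 alternatives (edgeR, DESeq2 or limma-voom adjusted p between 0.194 and 0.846). Sycp3, on chromosome 10, fell by 0.34 (72.8 ± 9.49 CPM in the knockout, 92.0 ± 11.3 CPM in WT, edgeR adjusted p = 0.00652), although its libraries overlapped. Whether the members' fold changes differ from those of these relatives was not tested. The plot of fold changes sets them side by side.

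**Figure D2:**
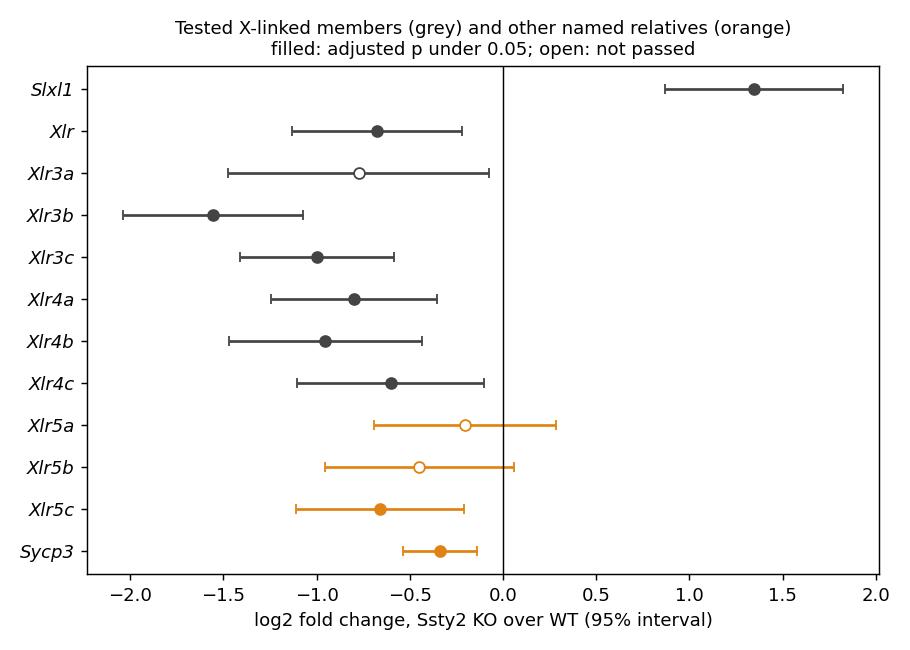
Log2 fold change, Ssty2 knockout over WT (x axis), of the 8 tested X-linked members (grey) and 4 named relatives (orange), with 95% intervals. Filled points passed the test: Slxl1, at 1.35, is the point to the right of 0, and Xlr3b, at -1.55, lies farthest to the left, while Sly is not drawn.

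Set per length of exon, the order of the members differed between the groups. In the knockout, Slxl1 was the highest at 4.78 ± 1.44 CPM per kilobase, followed by Xlr4a at 1.12 ± 0.350 and Xlr3c at 0.949 ± 0.178, which lay within each other's spread. Xlr4c (0.649 ± 0.250), Xlr (0.519 ± 0.0713), Xlr4b (0.353 ± 0.105) and Slx (0.263 ± 0.191) came next, then Xlr3b (0.218 ± 0.0253) and Xlr3a (0.163 ± 0.0789), with Sly last at 0.0100 ± 0.0201 CPM per kilobase. In WT, Sly led at 7.56 ± 1.53 CPM per kilobase. Xlr4a (1.98 ± 0.192), Xlr3c (1.89 ± 0.261) and Slxl1 (1.85 ± 0.333) then lay within each other's spread, and Xlr4c (1.00 ± 0.107) and Xlr (0.825 ± 0.157) came below them. Xlr4b (0.687 ± 0.0720) and Xlr3b (0.636 ± 0.138) lay within each other's spread, and Xlr3a (0.284 ± 0.0641) and Slx (0.0472 ± 0.0388 CPM per kilobase) were the lowest. Shared reads limit these levels, since the reads of a member could be counted in other gene models.

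How far reads can be shared was measured by words of 31 bases in the transcripts. Words were shared within the Xlr3, Xlr4 and Xlr5 groups and little between them. Of the words of Xlr3c, 76.4% were found in Xlr3b and 62.2% in Xlr3a. Of the words of Xlr4a, 79.3% were found in Xlr4c and 75.2% in Xlr4b. Slx shared 5.14% of its words with Xlr, although 76.8% of them occurred in some other gene. Sycp3 shared none with any gene.

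**Figure D3:**
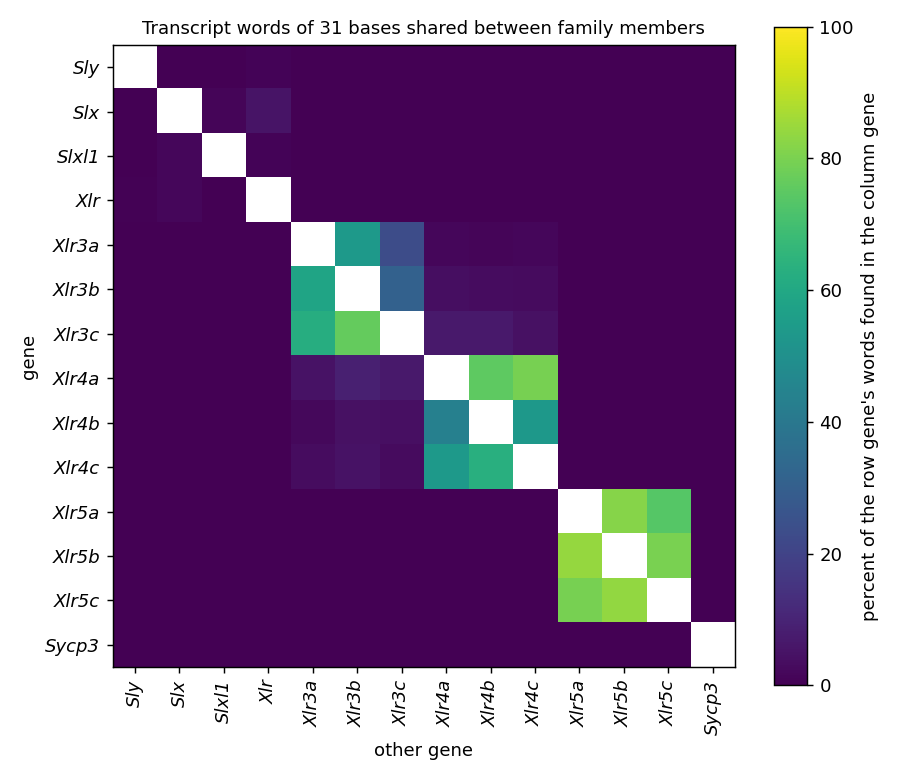
Percentage of the 31-base words in each row gene's transcripts that also occur in the column gene (colour scale from 0 to 100), for the 10 members and 4 named relatives. Xlr3, Xlr4 and Xlr5 each form a block of shared words, while Sly, Slx, Slxl1, Xlr and Sycp3 share few or none with the other named genes.

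Because of this sharing, counts were also summed over each gene and its copies, taken as gene models with at least 50% of their words in a member. The copies and this limit were chosen after the members' values had been seen. Slx with its copies, 34 gene models of which 20 had no count, held 145, 158, 175 and 148 counts in the knockout libraries and 50, 60, 63 and 78 in the WT libraries. The sums did not overlap and averaged 8.02 ± 0.530 CPM in the knockout and 2.85 ± 0.604 CPM in WT, a ratio of 2.82. Of the 14 models with counts, 13 had a higher level in the knockout over the group. Slxl1 with its copies (14 models, 6 without a count) held 327, 317, 386 and 412 counts in the knockout libraries and 135, 189, 182 and 201 in the WT libraries. Its sum was 18.7 ± 3.83 CPM in the knockout and 7.99 ± 1.26 CPM in WT, a ratio of 2.34 without overlap.

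Each of the 4 tested Slx copies and each of the 3 tested Slxl1 copies rose. Among the Slx copies, Gm5169 rose to 2.75 ± 0.147 CPM in the knockout, against 0.904 ± 0.273 CPM in WT (edgeR adjusted p = 1.52e-05). Gm14525 rose by 1.47 on the log2 scale, Gm14527 by 1.33 and Gm6121, whose libraries overlapped, by 1.27. The tested Slxl1 copies are annotated as pseudogenes. Among them, Gm6664 rose by 1.81 (2.04 ± 0.268 CPM in the knockout, 0.575 ± 0.106 CPM in WT, edgeR adjusted p = 1.22e-05). Gm14598 rose by 1.19 and Gm6660 by 1.09. With a limit of 25% of words, 5 more tested models joined Slx. Of these, Gm5935 (1.39), Gm2012 (1.45), Gm1993 (1.34) and Gm7350 (1.27) rose, and Gm5168 did not pass (log2 fold change 0.71, edgeR adjusted p = 0.186). These models share reads with each other and are not independent.

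Sly with its copies came to 117 gene models of the Y, of which 40 had no count. Of the 22 tested models 21 fell. The exception was Gm28510, singled out after its values were seen, which had 108, 134, 136 and 104 counts in the knockout libraries and 49, 88, 80 and 100 in the WT libraries. It rose by 0.78 on the log2 scale (edgeR adjusted p = 0.00105) and held 482 of the 508 counts of the group in the knockout, against 317 of 4734 in WT. Just over the limit, 52.9% of its words were found in Sly. The other 116 models together held 7, 9, 6 and 4 counts in the knockout libraries and 743, 1093, 1488 and 1093 in the WT libraries. That is 0.668% of the WT level in the knockout, with a counting interval of 0.436% to 0.980%. The sum was 0.329 ± 0.0860 CPM in the knockout and 49.1 ± 8.36 CPM in WT. With a limit of 25% of words, 23 of 25 tested models fell. Gm28356, which joined at that limit, held 297 counts in the knockout and 359 in WT. It did not pass (log2 fold change -0.09, edgeR adjusted p = 0.625).

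**Figure D4:**
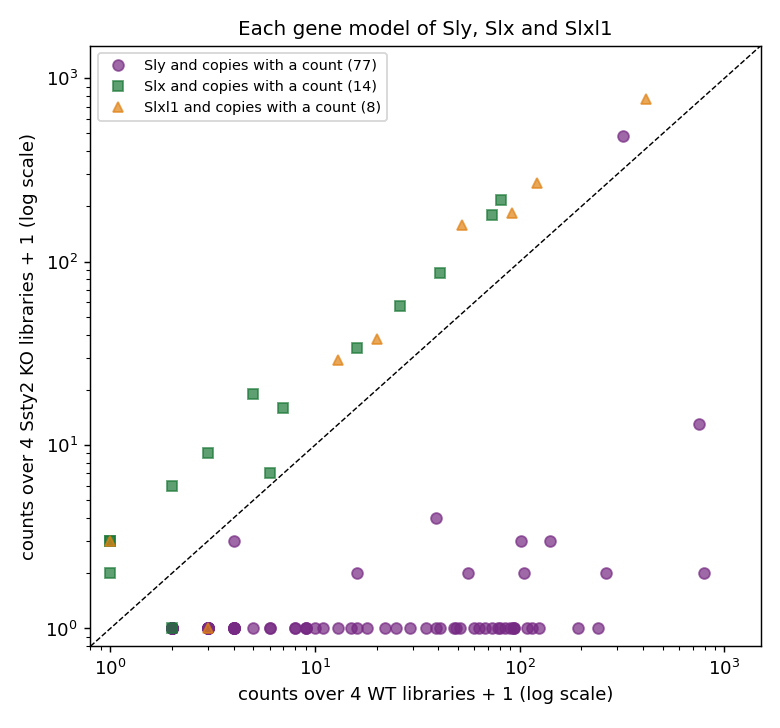
Counts over 4 knockout libraries (y axis) against counts over 4 WT libraries (x axis), each plus 1 and on log scales, for 77 Sly (circles), 14 Slx (squares) and 8 Slxl1 (triangles) gene models with a count. Most Slx and Slxl1 models lie above the dashed line of equal counts, and most Sly models run along the bottom, with 1 circle above the line, Gm28510.

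Summed in the same way, the Xlr3 genes with their copies held 3.00 ± 0.558 CPM in the knockout and 6.55 ± 0.811 CPM in WT, a ratio of 0.458. The Xlr4 genes held 4.67 ± 1.27 CPM in the knockout and 7.69 ± 0.482 CPM in WT (0.607). The Xlr5 genes held 4.33 ± 0.801 CPM in the knockout and 5.73 ± 0.153 CPM in WT (0.755). None of these sums overlapped between the groups. Knockout library 2 was the highest for Xlr4 (6.48 CPM) and library 1 for Xlr5 (5.42 CPM), both below the lowest WT library (7.09 and 5.56 CPM). The 9 X-linked members by themselves summed to between 9.84 and 13.1 CPM in the knockout libraries and between 15.8 and 17.8 CPM in the WT libraries.

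**Figure D5:**
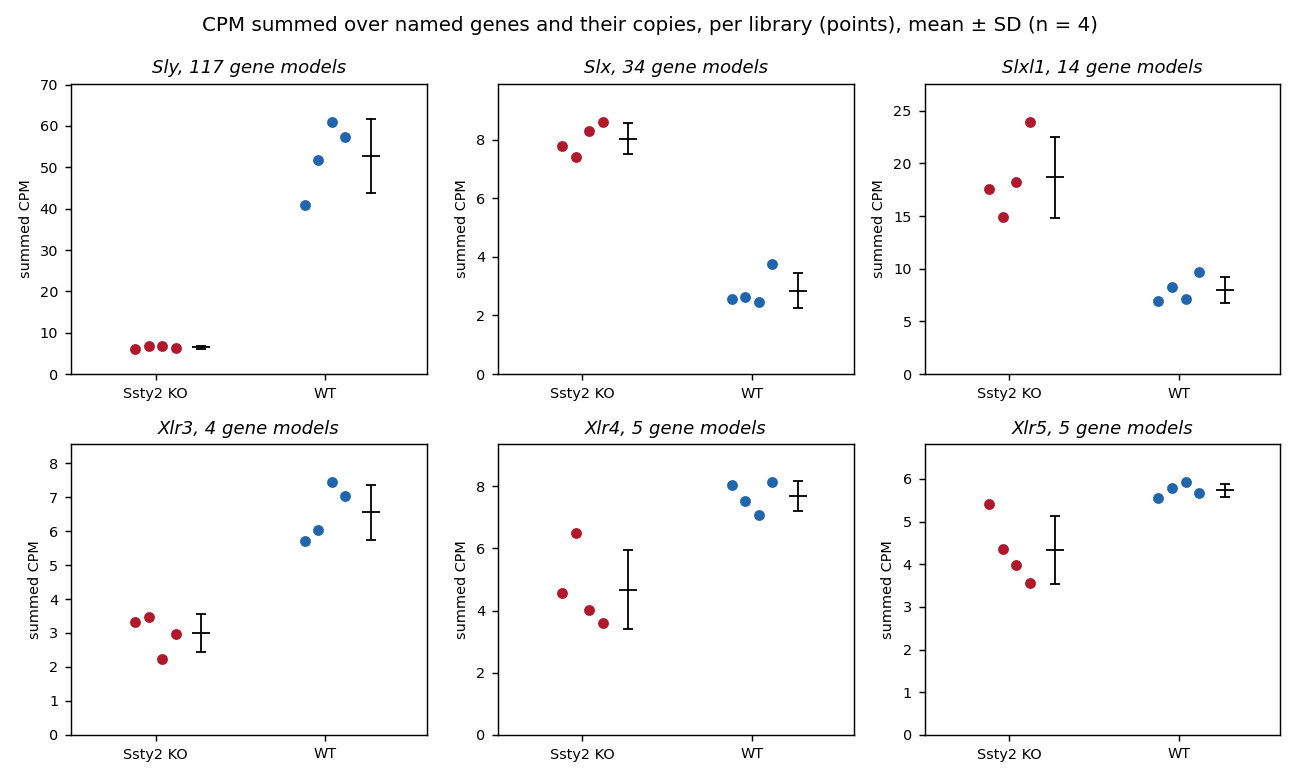
CPM summed over each named gene or group and its copies (y axis, from 0) in 4 Ssty2 knockout (red, left) and 4 WT libraries (blue, right), with mean ± SD. Slx and Slxl1 are higher, and Sly, Xlr3, Xlr4 and Xlr5 lower, in every knockout than in every WT library, and the knockout level of Sly, 6.47 ± 0.285 CPM, is held mostly by Gm28510.

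Since spermatid markers were higher and somatic markers lower in the knockout, the sums were also set against marker counts. Per 1000 counts of round spermatid markers, Slx with copies had 0.926 ± 0.0593 counts in the knockout and 0.454 ± 0.0925 in WT, and Slxl1 with copies had 2.15 ± 0.423 in the knockout and 1.28 ± 0.214 in WT. Slxl1 alone had 0.402 ± 0.117 in the knockout and 0.215 ± 0.0366 in WT. These values did not overlap between the groups. Crisp2 held the most of the round spermatid sum (2429 CPM in the knockout). Single markers of that list rose by 0.24 (Zpbp2) to 0.85 (Tex21) on the log2 scale, so the ratios depend on the markers used. Per 1000 counts of spermatocyte markers, Xlr3 had 0.349 ± 0.0577 in the knockout and 0.843 ± 0.111 in WT, and Xlr4 had 0.544 ± 0.140 in the knockout and 0.989 ± 0.0530 in WT, again without overlap. The members of that marker list did not move together. Ldhc, named after its values were seen, held the most of its sum and rose (3744 CPM in the knockout, 3216 CPM in WT). Among the 4 listed genes with the smallest p, Meiob, Dmc1 and Hormad1 fell by 0.83, 0.70 and 0.57 on the log2 scale. Tbpl1, also among them, rose by 0.27. Of the 16 genes 7 did not pass, such as Spo11 (-0.14) and Mybl1 (-0.11). The log2 ratio was -0.72 for the Xlr4 sum and -1.13 for the Xlr3 sum. Ratios to single genes of the list were not computed. Per 1000 counts of spermatogonial markers, Xlr3 had 3.84 ± 0.746 in the knockout and 7.69 ± 0.933 in WT. Xlr4 had 5.97 ± 1.58 in the knockout and 9.05 ± 0.931 in WT, and neither overlapped. Ddx4, which did not pass, held the most of that marker sum (600 CPM in the knockout, 577 CPM in WT). Per 1000 counts of Sertoli cell markers, Xlr3 stayed apart (2.13 ± 0.455 in the knockout, 3.15 ± 0.514 in WT), while Xlr4 overlapped (3.34 ± 1.10 in the knockout, 3.68 ± 0.236 in WT). Which testis cells gave the Xlr4 counts was not tested. Of 10 tested lymphocyte markers, chosen because Xlr takes its name from these cells, 2 rose and 0 fell. Ms4a1 was at 0.782 ± 0.0486 CPM in the knockout and 0.349 ± 0.112 CPM in WT, and Zap70 at 2.77 ± 0.543 CPM in the knockout and 1.88 ± 0.497 CPM in WT. Their list summed to 15.7 to 23.0 CPM in the knockout and 16.3 to 21.2 CPM in WT, and none of the 14 listed genes was at 0.

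Taken over both loci, the neighbours of the members on the X did not share a direction. Xlr and Slxl1 follow each other in annotation order when copies and untested genes are left out, and Xlr fell while Slxl1 rose. Their promoter windows lie far apart, from chrX:53797707 for Xlr and from chrX:55226626 for Slxl1. Next to the pair in that order, at any distance, Zfp36l3 (1.37), Gm6025 (1.16) and Gm14623 (1.23) rose on the log2 scale. So did 1600025M17Rik (1.63) and 1700013H16Rik (0.32), while Gm773 (-0.24) did not pass. Within the Xlr3 to Xlr5 cluster, where 6 of the 9 Xlr genes fell, F8a rose by 0.79 (12.1 ± 2.62 CPM in the knockout, 7.03 ± 0.647 CPM in WT, edgeR adjusted p = 0.000209) and DXBay18 by 1.19. Just outside the cluster, Zfp275 fell by 0.82, Nsdhl by 0.74, Pnma5 by 0.63 and Gm18336 by 0.62. Zfp185 rose by 0.57, and Haus7 (0.11) did not pass. Of 9 tested genes listed as neighbours of the cluster, Xlr5 genes included, 1 rose and 5 fell (median log2 fold change -0.50). Of all tested X-linked genes 36.4% were called higher and 41.1% lower.

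Genes whose products work with SLY and SLX were listed as well. Of 11 tested partners, 2 rose and 5 fell (median log2 fold change -0.28). After Ssty2, the smallest p belonged to Spin1, the H3K4me3 reader that binds SLX and SLY, which fell by 0.63 (28.3 ± 0.747 CPM in the knockout, 43.6 ± 2.27 CPM in WT, edgeR adjusted p = 1.25e-06). Tbl1x and Hdac3, subunits of the NCoR corepressor complex that SLY binds, fell by 0.59 and 0.37. Ssty1 had no count in any library. This does not show that Ssty1 was silent, since how reads with several matches were counted is not given.

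Of 12 tested chromatin genes linked to SLY, 3 rose and 5 fell (median log2 fold change -0.11). Of all tested genes 26.2% were called higher and 27.4% lower. Dot1l, the H3K79 methyltransferase whose gene SLY controls, rose by 0.31 (398.8 ± 12.4 CPM in the knockout, 322.5 ± 13.4 CPM in WT, edgeR adjusted p = 8.54e-05). Whether the loss of Sly counts bears on Dot1l was not tested. H2al2a, a short histone H2A variant of late spermatids, rose by 0.58, while Scml2, a germline Polycomb protein that binds sex chromatin, fell by 0.72 and H2az1 by 0.33. Of 20 tested sex-linked spermatid genes, the kind of gene that SLY represses, 14 rose and 3 fell (median log2 fold change 0.84). Of all tested X-linked genes 36.4% were called higher. The list was made with earlier results of these data known, so the count is a description. Actrt1 rose by 1.95, Cypt2 by 1.29, Tcp11x2 by 1.27 and Cypt3 by 1.23. Mageb4 fell by 0.76, Magea4 by 0.57 and Zfy1 by 0.54. Whether the loss of Sly counts bears on these genes was not tested. Many of these genes are spermatid genes, and the round spermatid markers had a median log2 fold change of 0.48. Of 10 tested synaptonemal complex genes, the functional kin of Sycp3, 2 rose and 6 fell (median -0.33), beside the same shares of all tested genes. Hormad1 fell by 0.57 and Syce1 rose by 0.26.

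As a description over the 8 libraries, the genes most like each member in log2 CPM were sought among 15966 candidates, for the 4 members with a mean log2 CPM of at least 1. For Sly these were AC160966.1, Gm8210 and Mog, with Pearson's r between 0.9959 and 0.9967. They are autosomal, on chromosomes 9, 1 and 17, and had log2 fold changes of -7.58, -5.77 and -6.47. These falls were less deep than that of Sly (log2 fold change -8.89), and their cause was not tested. For Slxl1 they were Gm40292, Zswim2 and Zfp296 (0.9855 to 0.9921). Fgfr2, Rab12 and Ppih were closest to Xlr3c (0.9863 to 0.9947), and Ech1, Mrpl45 and Ndufs8 to Xlr4a (0.9803 to 0.9868). Each r includes the difference between knockout and WT libraries, and no p is given.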

How the data were processed

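Bulk RNA-seq counts of adult mouse testis were analysed in 4 Ssty2 knockout and 4 WT libraries. The authors deposited raw counts per Ensembl gene, with no normalization. The submitters' processing notes name build mm39 and the tools STAR, featureCounts, Trimmomatic, FastQC and DESeq2. The sources used here do not give versions, strand or the treatment of reads with several matches. Names, chromosomes, gene order, exon lengths and transcript words of 31 bases came from GENCODE vM21 on GRCm38, so no coordinates of the count table are given; promoters came from RefSeq. Reads of near-identical copies may be split between them or lost, and overlapping genes cannot be told apart.

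Libraries were compared with edgeR 4.0.16 in R 4.3.3 (filterByExpr with a minimum count of 10 and a minimum total of 15, TMM, quasi-likelihood test, genotype as the only term, Benjamini-Hochberg adjustment over all tested genes, called under 0.05), checked on simulated data. CPM are counts over the TMM library size, given as mean ± SD. Counting intervals of ratios are exact binomial at 95%. Alternatives were DESeq2 1.42.0, limma-voom (limma 3.58.1), other scalings and filters, a replicate block and leaving out each library. The members and gene lists were chosen with earlier results of these data known. The genes named are all members, the named relatives, the copies found by words, up to 4 genes of each list by smallest p, the nearest tested neighbours, and 3 genes by likeness for members with a mean log2 CPM of at least 1 (pseudocount 0.5). A search for relatives by protein sequence was not run, and the list of named relatives was used.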

Additional observations from a re-analysis of the deposited data

Results flagged for a closer look

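In groups of 4 libraries, a library was picked out where its gap to the nearest other library, divided by the range of the group, was over Dixon's 95% critical value. Chance picks out about 1 in 20 groups, and 5 of 54 groups were picked out here. Sly in the knockout had this gap at 1, since knockout library 2 held the only count. The other 4 were WT library 4. It was low for Xlr5a (1.30 CPM, against 2.22 to 2.26 CPM in the other WT libraries, gap 0.954) and high for Xlr5c (2.07 CPM, against 1.71 to 1.75 CPM, gap 0.871). It was also high for Slx summed with its copies (3.75 CPM, against 2.45 to 2.62 CPM, gap 0.868) and for the Slx copies without Slx (3.70 CPM, against 2.41 to 2.57 CPM, gap 0.877). Without WT library 4, the log2 ratio of the Slx sums was 1.65, against 1.49 with it. Xlr5a then had a log2 fold change of -0.36 (edgeR adjusted p = 0.194) and Xlr5c one of -0.60 (edgeR adjusted p = 0.0472).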

How the results depend on the processing

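No member, copy group or sum reversed under any alternative that was run. The number of genes called ran from 10384 to 12164 over 15 alternatives, and the number of members called from 6 to 10, or 6 to 9 when a library was left out. Sly, Slxl1, Xlr3b, Xlr3c, Xlr4a and Xlr4b kept their call in each of these alternatives, while Xlr, Xlr3a and Xlr4c changed sides in at least 1. Of the named relatives, Xlr5c and Sycp3 kept their call and Xlr5b gained one in 2. The 21 called Sly copies became 43 with no filter and 8 with a filter of at least 1 CPM in at least 4 libraries. The 4 called Slx copies became 2 with that filter and 8 at 25% of words. The log2 ratio of the Sly sums was -3.03, and -2.52 at 25% of words. At 25%, the Xlr sum, which then takes in 3830403N18Rik, overlapped between the groups.

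Same-numbered libraries deviated together only weakly (r of 0.113, 0.0429, 0.0750 and 0.0123). Knockout libraries 1, 2 and 3 correlated best with the WT library of the same number, and knockout library 4 with WT library 2 (0.0249). The labels name no pairing, and the main fit did not use the numbers. Whether they mark a pairing or a shared batch was not tested. The fit with a replicate block called 12118 genes and 9 members, with Xlr3a passing (edgeR adjusted p = 0.0451).

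Most members had fewer than 100 counts per library, so that small changes could not be seen, and shared reads limit the values of single copies.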
